A study of Mus musculus with 6 samples.

Results

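The genes described here are 9 members of the interleukin-20 (IL-20) and interleukin-6 (IL-6) cytokine families and their shared Stat3 pathway: the ligand Il24, the receptor chains Il20ra, Il20rb, Il22ra1, Il10rb, Osmr and Il6st, the transcription factor Stat3 and its inhibitor Socs3. They are 9 of the 24982 gene rows of the deposited count matrix, and all 9 symbols were found in it. The set was chosen by name with the denervated against normal values of these same 6 libraries in view, so those values are given as a description and support nothing beyond themselves. RNA was measured in keratinocytes sorted from the back skin of 3 mice, numbered 890, 892 and 899 in the labels. Every mouse carried the knock-in allele Lgr6-EGFP-Ires-CreERT2 together with the reporter allele R26loxP-stop-loxP-tdTom, and had received 20 µg of tamoxifen once at postnatal day 42 (P42). In this model the Lgr6 locus drives both GFP and the tamoxifen-activated Cre, so tdTomato marks cells in which Lgr6 was active at the time of the dose, and their descendants. The denervated group (3 libraries) is the left side, where the thoracic nerves T3 to T12 had been removed, and the normal group (3 libraries) is the right side of the same animals, where the nerves were left in place. Both were sampled 4 weeks after the operation as tdTomato-positive cells that also carried CD49f, the integrin Itga6, and, by the series' design text, the Lgr6 GFP. No sham operation of the right side is described and the age at sampling is not stated, so a normal library comes from an animal that had been operated on and had lost the nerves of its other side.

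Cytokines of the IL-20 subgroup (IL-19, IL-20 and IL-24) signal through pairs of receptor chains: Il20ra with Il20rb, which all of them use, or Il22ra1 with Il20rb, which IL-19 does not use. IL-22 uses Il22ra1 with Il10rb. The IL-6 family shares the chain Il6st (gp130), which pairs with Osmr to bind oncostatin M. Both families act on keratinocytes through Janus kinases that phosphorylate Stat3, and Stat3 in turn switches on Socs3, which binds receptors and kinases and damps the signal. In epidermis these cytokines are known for their part in wound closure, keratinocyte proliferation and the thickened skin of psoriasis. The libraries measure messenger RNA only, so receptor protein and Stat3 phosphorylation were not measured.

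Library totals ran from 13801154 to 26167593 counts on the normal side and from 9610071 to 14021730 on the denervated side. An exact two-sided permutation test that ignored the animals gave p = 0.2, where 0.1 is the smallest value that 3 against 3 allows. Within each animal the normal library was the deeper one. The totals were 26167593 against 9610071 counts in animal 890, 20724439 against 14021730 in 892 and 13801154 against 13232950 in 899. The part of depth in the values below was not tested. The 8 keratinocyte markers (Krt5, Krt14, Krt15, Itga6, Itgb4, Col17a1, Trp63 and Lgr6) summed to 46520 to 48280 CPM (gene counts scaled to a common library total) on the normal side and 45290 to 51460 on the denervated side. Of the other cell types, 14 Langerhans and myeloid markers summed to more on the denervated than on the normal side of each animal (180 to 192 CPM against 120 to 186, with C1qb at 0 throughout). The sum of 8 fibroblast markers was lower in 3 of 3 (1.08 to 1.82 CPM against 1.77 to 4.44, with Lum at 0). The 12 T cell and innate lymphoid markers summed to 567 to 631 CPM against 575 to 639, the 10 endothelial and pericyte markers to 4.74 to 7.04 against 3.91 to 6.44 (Cdh5 and Emcn at 0), the 6 Schwann cell markers to 398 to 438 against 342 to 412, and the 6 melanocyte markers to 12.7 to 24.3 against 16.9 to 20.0 (Mlana at 0). No marker of any list passed the test, and the part of these cells in the values below was not tested. In sorted bulk samples, fewer cells of a type and less RNA per cell cannot be told apart.

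Denervated and normal sides were compared with edgeR's quasi-likelihood test on the counts, with the animal as a block, and p-values were adjusted by the Benjamini-Hochberg method over all genes tested. Of 12310 genes tested, 426 (3.46%) passed an adjusted p of 0.05, 355 (2.88%) of them higher and 71 (0.577%) lower on the denervated side. With library totals in place of TMM scaling (edgeR's trimmed mean scaling), 59.3% of 290 calls were higher, against 83.3% here. Without the animal block no gene passed in edgeR's test, although 1537 genes had an unadjusted p under 0.05, and DESeq2 without the block called 381. Among the 9 members 4 passed: Osmr was higher, and Il20ra, Il20rb and Socs3 were lower. A further 4 were tested and did not pass (Il22ra1, Il10rb, Il6st and Stat3), and Il24 had too few counts to be tested. Since the members were selected on this contrast, nothing is read from their count against the 3.46% of all genes. The TMM-scaled CPM of the 2 sides did not overlap in 5 of the 9 members (19.0% of all genes tested). In 7 of the 9 the sides differed in the same direction in all 3 animals (40.7% of all genes tested). Both counts include Socs3, whose sides were nearly equal in animal 899. The 7 also include Il24, which was not among the genes tested and had 8 and 9 counts in animal 899. The median absolute log2 fold change of the 8 tested members was 0.32, against 0.14 for all genes tested. Because of the same selection, nothing is read from that difference either.

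**Figure D1:**
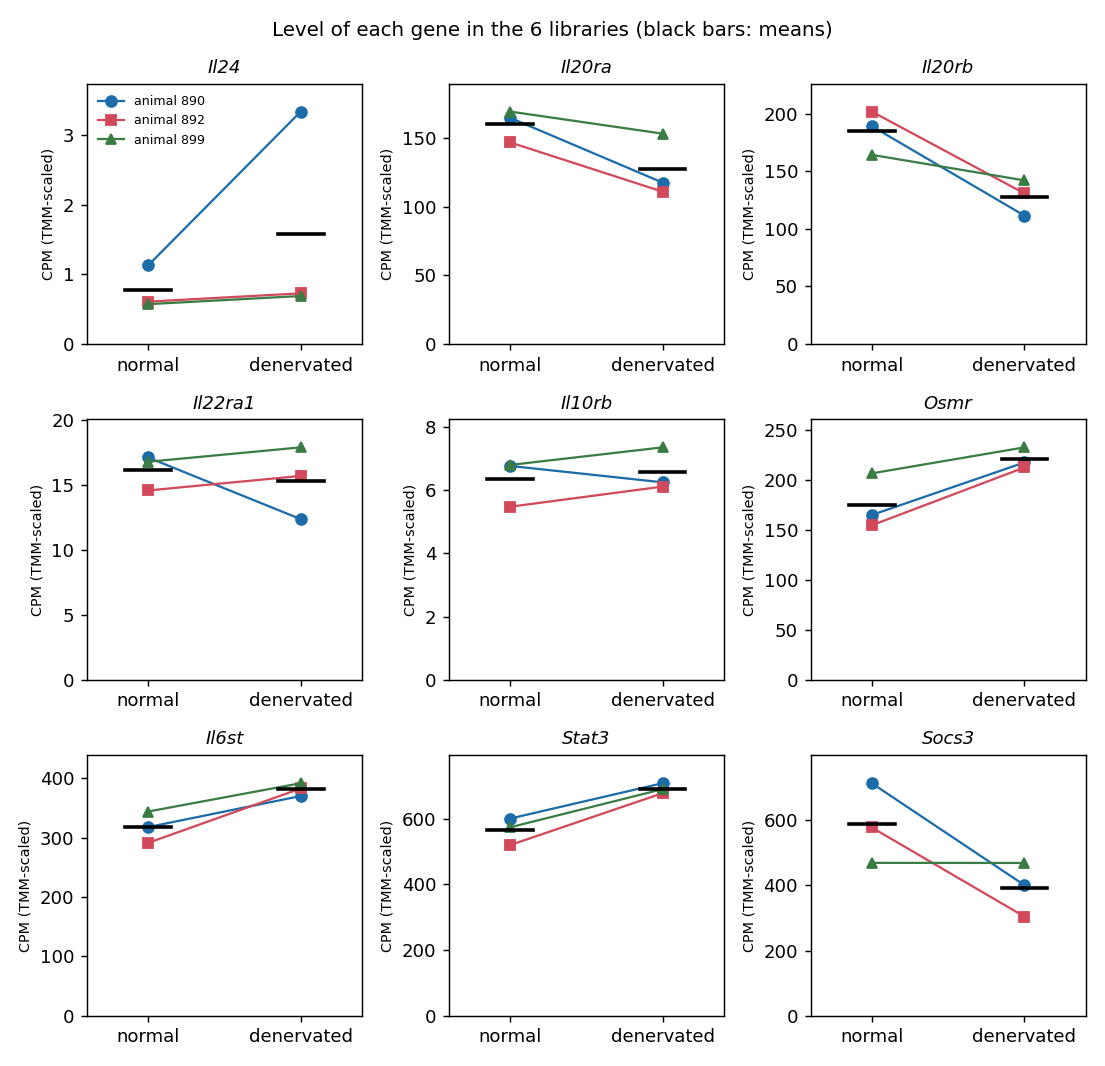
TMM-scaled CPM (vertical axes, each from 0) of the 9 genes on the normal and denervated side, with 1 line per animal and a black bar at each group's mean. The denervated point is the higher end of all 3 lines for Osmr, Il6st and Stat3 and the lower end for Il20ra and Il20rb, while Socs3 is lower in animals 890 and 892 and level in 899.

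Il24, the only ligand among the members (chromosome 1, 130882074 to 130887454, minus strand, build mm10), was close to the detection limit. It had 30, 13 and 8 counts in the normal libraries of animals 890, 892 and 899 and 31, 10 and 9 counts in their denervated libraries. Scaled for depth this was 1.13, 0.608 and 0.572 CPM on the normal side and 3.34, 0.727 and 0.689 CPM on the denervated side. The denervated library of animal 890 stood apart from the other 5, and animals 892 and 899 differed between sides by log2 0.26 and 0.27. Mean levels were 0.769 ± 0.311 CPM (SD, n = 3) and 1.58 ± 1.52 CPM (SD, n = 3). When the count filter was removed, edgeR's test gave a log2 fold change of 0.81 ± 0.59 (SE) with an adjusted p of 0.613, and without the denervated library of animal 890 the unblocked value was −0.15. The 2 deposited quantifications differ most for this gene in 1 library: the normal library of animal 890 has 30 counts in the matrix and 12 estimated counts in the transcript-based file.

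Of the other ligands of this family, none of the 6 listed (Il10, Il19, Il20, Il22, Ifnl2 and Ifnl3) had enough counts to be tested. Il22 had 0 counts in all 6 libraries, where 3 counts would have been 0.115 to 0.312 CPM depending on the library. Il19 and Il20, the other ligands of the Il20ra and Il20rb pair, reached at most 3 and 8 counts in any library.

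Il20ra, the first chain of the IL-20 receptor (chromosome 10, 19712570 to 19760053, plus strand), was lower on the denervated side. It measured 165, 147 and 169 CPM in the normal libraries of animals 890, 892 and 899, and 117, 111 and 153 CPM in the denervated libraries. Each animal had less on its denervated side, but the groups overlap, because the denervated library of animal 899 lay above the normal library of animal 892. Means were 160 ± 11.9 CPM (SD, n = 3) and 127 ± 22.7 CPM (SD, n = 3), a 1.27-fold lower level with a fitted log2 fold change of −0.34 ± 0.08 (SE, adjusted p = 0.0384, edgeR's test). The call is lost without animal 890 (adjusted p = 0.0923) or without animal 892 (adjusted p = 0.231).

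The bases before the RefSeq start of Il20ra are shown because, of the 7 members with a RefSeq promoter window, Il20ra is 1 of 3 whose window holds the AP-1 motif TGANTCA. The stretch is chr10:19712337-19712569, plus strand, build GRCm38.p6, 5′ to 3′, with the motif in capitals. It stops 17 bases short of the RefSeq start, where the GENCODE gene begins, and the motif lies 164 bases before the RefSeq start.
Il20ra: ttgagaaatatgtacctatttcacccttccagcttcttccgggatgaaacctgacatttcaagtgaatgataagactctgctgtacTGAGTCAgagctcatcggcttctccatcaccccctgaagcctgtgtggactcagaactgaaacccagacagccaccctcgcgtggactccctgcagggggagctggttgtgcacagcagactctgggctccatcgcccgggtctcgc
The other windows with TGANTCA were those of Il22ra1, 222 bases before the RefSeq start, and of Osmr, 3 bases after it. For Osmr the GENCODE start lies 656 bases further upstream, so its match falls inside the GENCODE gene. Of 27025 genes, 8.97% have the motif in a window of the same 300 bases, on either strand. Such a match is a description of the letters and not of binding.

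Il20rb, the chain common to both IL-20 receptor pairs (chromosome 9, 100457719 to 100486788, minus strand), had the lowest adjusted p of the members. Its levels were 189, 202 and 164 CPM on the normal side of animals 890, 892 and 899, and 112, 131 and 142 CPM on the denervated side. All 3 denervated libraries lay below all 3 normal libraries, and animal 899 had the smallest difference (log2 −0.21, against −0.76 in 890 and −0.63 in 892). Means were 185 ± 19.1 CPM and 128 ± 15.5 CPM (SD, n = 3 each), 1.45-fold lower with a log2 fold change of −0.53 ± 0.10 (SE, adjusted p = 0.0121, edgeR's test). It passed the same test when each animal in turn was left out, and no other member passed in all 3 of these fits.

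Il22ra1, the chain that joins Il20rb in the other IL-20 and IL-24 receptor and Il10rb in the IL-22 receptor (chromosome 4, 135728172 to 135752140, plus strand), was far scarcer. It had 17.1, 14.6 and 16.8 CPM in the normal libraries and 12.4, 15.7 and 17.9 CPM in the denervated libraries of animals 890, 892 and 899. The groups overlap: the denervated side was lower in animal 890 and slightly higher in the other animals. The log2 fold change was −0.08 ± 0.15 (SE, adjusted p = 0.821, edgeR's test), and its sign turned when animal 890 was left out.

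Il10rb, the second chain of the IL-10 and IL-22 receptors (chromosome 16, 91406164 to 91425834, plus strand), had 6.76, 5.47 and 6.79 CPM on the normal side and 6.24, 6.11 and 7.35 CPM on the denervated side. Here too the groups overlap and the animals differ in direction, with a log2 fold change of 0.05 ± 0.19 (SE, adjusted p = 0.913, edgeR's test). The predicted gene Gm21970, on the same strand, shares 569 exon bases with Il10rb, so reads of these genes could be split between them. Its sign turned, to −0.0075, with library totals as the scaling.

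**Figure D2:**
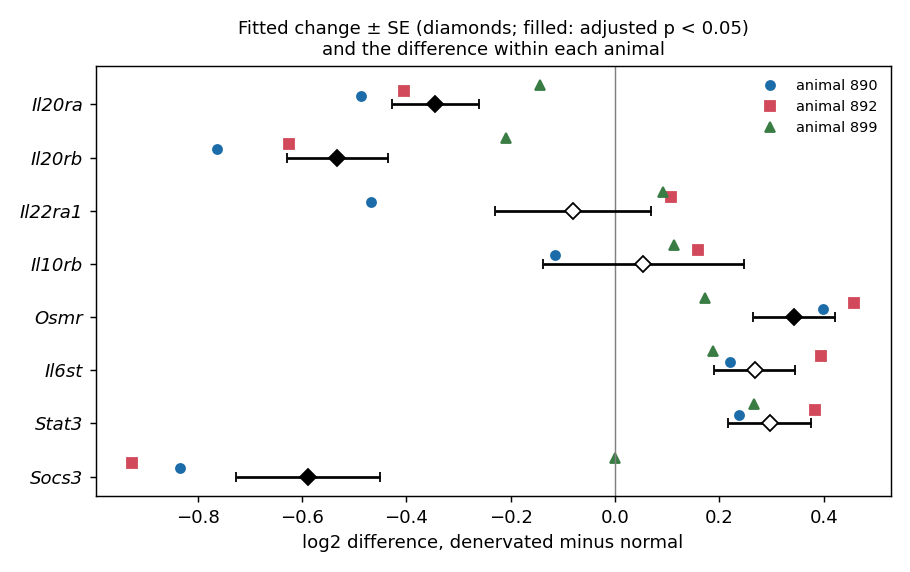
Log2 difference, denervated minus normal (horizontal axis), of the 8 members that were tested: diamonds give the fitted log2 fold change with its SE, filled where the adjusted p was under 0.05, and coloured symbols give each animal. Il20ra and Il20rb lie left of 0 and Osmr, Il6st and Stat3 right of 0 in all 3 animals, and the symbol of animal 899 for Socs3 lies at 0.

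Osmr, the oncostatin M receptor chain (chromosome 15, 6813577 to 6874969, minus strand), moved the other way from the IL-20 receptor chains. It measured 165, 154 and 206 CPM on the normal side of animals 890, 892 and 899 and 217, 212 and 232 CPM on the denervated side. Every denervated library lay above every normal library, with the closest approach between the normal library of animal 899 and the denervated library of animal 892. Means were 175 ± 27.5 CPM and 221 ± 10.5 CPM (SD, n = 3 each), 1.27-fold higher with a log2 fold change of 0.34 ± 0.08 (SE, adjusted p = 0.0325, edgeR's test). The call is lost without animal 892 (adjusted p = 0.211) and with library totals as the scaling (adjusted p = 0.0687).

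Il6st, the gp130 chain shared by the IL-6 family (chromosome 13, 112464070 to 112510086, plus strand), did not pass the test. It had 318, 291 and 344 CPM in the normal libraries and 370, 383 and 392 CPM in the denervated libraries of animals 890, 892 and 899. The groups do not overlap, and the denervated side had the higher value in each animal. Means were 318 ± 26.4 CPM and 382 ± 10.9 CPM (SD, n = 3 each), with a log2 fold change of 0.27 ± 0.08 (SE, adjusted p = 0.0783, edgeR's test). DESeq2 with the animal block put it past the threshold (adjusted p = 0.0189).

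Stat3, the transcription factor on which both receptor families converge (chromosome 11, 100885098 to 100939540, minus strand), likewise missed the threshold. Its levels were 601, 520 and 574 CPM on the normal side and 709, 678 and 690 CPM on the denervated side. The groups do not overlap, and the 3 denervated libraries lay closer to each other than the 3 normal ones (SD of log2 CPM 0.03 against 0.11). Means were 565 ± 41.2 CPM and 692 ± 15.3 CPM (SD, n = 3 each), with a log2 fold change of 0.30 ± 0.08 (SE, adjusted p = 0.0604, edgeR's test). It stood at the edge of the threshold: with DESeq2's size factors in edgeR the adjusted p was 0.0494, and in DESeq2 with the block 0.0035. Stat3 shares 72 exon bases with Stat5a on the opposite strand, and no source used here states the strand setting of the counting.

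The stretches before the RefSeq starts of Il6st and Stat3 are set side by side because these members of the shared signalling core are the only ones of the 7 whose windows hold the CCAAT motif. They are chr13:112463820-112464069, plus strand, and chr11:100939541-100939790, minus strand, build GRCm38.p6, 5′ to 3′, with CCAAT or its reverse complement ATTGG in capitals.
Il6st: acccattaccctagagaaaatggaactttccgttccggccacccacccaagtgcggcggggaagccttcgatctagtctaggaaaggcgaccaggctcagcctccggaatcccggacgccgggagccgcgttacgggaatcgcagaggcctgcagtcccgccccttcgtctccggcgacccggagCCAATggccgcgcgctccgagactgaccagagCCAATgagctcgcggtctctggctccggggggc
Stat3: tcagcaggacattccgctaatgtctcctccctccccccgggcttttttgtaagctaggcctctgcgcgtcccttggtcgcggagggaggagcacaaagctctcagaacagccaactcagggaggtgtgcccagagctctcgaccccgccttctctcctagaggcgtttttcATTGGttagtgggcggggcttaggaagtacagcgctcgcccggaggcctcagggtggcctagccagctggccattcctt
Il6st has the motif 65 and 33 bases before its start, and Stat3 has it 79 bases before and, outside the stretch shown, 45 bases after. The motif is common, with 41.1% of 27025 genes holding it in such a window on either strand.

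Socs3, the feedback inhibitor that Stat3 induces (chromosome 11, 117966079 to 117970047, minus strand), was lower on the denervated side although Stat3 itself had the higher values there. Normal libraries measured 714, 578 and 469 CPM in animals 890, 892 and 899, and denervated libraries 401, 304 and 469 CPM. Animals 890 and 892 had less on the denervated side (log2 −0.83 and −0.93), while in animal 899 both sides were at 469 CPM. The groups do not overlap only by the decimals of animal 899, and in TPM (transcript estimates per length, scaled to a common total) they do overlap. Means were 587 ± 123 CPM and 391 ± 82.8 CPM (SD, n = 3 each), 1.50-fold lower with a log2 fold change of −0.59 ± 0.14 (SE, adjusted p = 0.0349, edgeR's test). The value was −0.40 without animal 892 (adjusted p = 0.0911) and −0.88 without animal 899, and DESeq2 with the block gave an adjusted p of 0.301.

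The bases before the RefSeq start of Socs3 are shown because it is the only one of the 7 windows with the Stat motif TTCNNNGAA, in capitals, 154 bases before the start. The stretch is chr11:117969367-117969616, minus strand, build GRCm38.p6, 5′ to 3′, and the GENCODE start of the gene lies 681 bases further upstream.
Socs3: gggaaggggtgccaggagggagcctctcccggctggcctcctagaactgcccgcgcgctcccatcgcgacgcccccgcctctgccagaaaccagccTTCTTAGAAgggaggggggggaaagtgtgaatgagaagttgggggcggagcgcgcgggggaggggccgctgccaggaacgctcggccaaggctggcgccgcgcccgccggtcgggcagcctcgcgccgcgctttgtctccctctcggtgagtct
On either strand, 9.55% of 27025 genes have this motif in their window. No match in the other 6 windows says only that these letters are not there.

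The authors' deposited table of denervated over normal gave the same direction for each of these 9 genes. For Il22ra1, Il10rb and Il24 it held no adjusted p and the status Low. Their log2 fold changes there were −0.07 ± 0.22, 0.06 ± 0.31 and 1.29 ± 0.85 (SE), so the direction of Il22ra1 and Il10rb carries little weight. In the authors' deposited table the adjusted p was 0.0136 for Il20ra, 0.000216 for Il20rb, 0.00748 for Osmr, 0.0219 for Il6st and 0.00135 for Stat3. Socs3 had an adjusted p of 0.304 in the authors' deposited table, with a log2 fold change of −0.58. These values and those of the edgeR fit come from the same libraries, and no source used here states whether the authors' design held the animal.

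Levels of different genes can be compared only per transcript length, for which the deposited TPM were used. On the normal side the inhibitor Socs3 stood highest with 404 ± 93.0 TPM (SD, n = 3), followed by Stat3 with 206 ± 18.8. Il20ra (135 ± 12.2 TPM) and Il20rb (131 ± 13.2 TPM) came next and did not differ beyond their spread, since Il20ra was the higher in 2 of 3 libraries. Below them stood Il6st at 97.9 ± 8.61 TPM and Osmr at 61.3 ± 9.19 TPM, and then, after a wide gap, Il10rb at 6.51 ± 0.854 TPM and Il22ra1 at 4.64 ± 0.487 TPM. Il24 was last with 0.876, 0.878 and 0.809 TPM in the 3 normal libraries. Apart from Il20ra and Il20rb, no neighbours in this order overlapped in their values.

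On the denervated side the order was less clear-cut. Socs3 (265 ± 65.5 TPM, SD, n = 3) and Stat3 (250 ± 11.2 TPM) overlapped, with Socs3 the higher in 2 of 3 libraries. Il6st (115 ± 8.36 TPM) stood ahead of Il20ra (105 ± 24.5 TPM) and Il20rb (88.6 ± 14.9 TPM), and each of Il6st, Il20ra, Il20rb and Osmr overlapped with its neighbour. Il10rb (6.65 ± 0.882 TPM) and Il22ra1 (4.36 ± 0.972 TPM) again stood far below, and Il24 had 5.40, 1.20 and 1.20 TPM, the first of these being animal 890. Within the receptors, then, the TPM of the Il20ra and Il20rb pair were within a factor of 1.29 of each other in every library. The alternative chain Il22ra1 was 19.4 to 34.3 times scarcer than Il20rb in TPM. These factors, and the places of the genes in both orders, rest on the lengths used for TPM. Those were 5825 bases for Il22ra1 and 2478 for Il20rb, against 2569 and 4206 exon bases in GENCODE M21. Il10rb had 1850 against 3808, Stat3 4512.5 against 9527, Il6st 5452 against 11099 and Osmr 4835 against 12113. The lengths were closer for Il20ra (2088 against 2428), Socs3 (2724 against 2891) and Il24 (1116 against 1386). CPM, which are not scaled for length, averaged 16.2 for Il22ra1 and 185 for Il20rb on the normal side. On the denervated side they averaged 15.3 and 128.

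**Figure D3:**
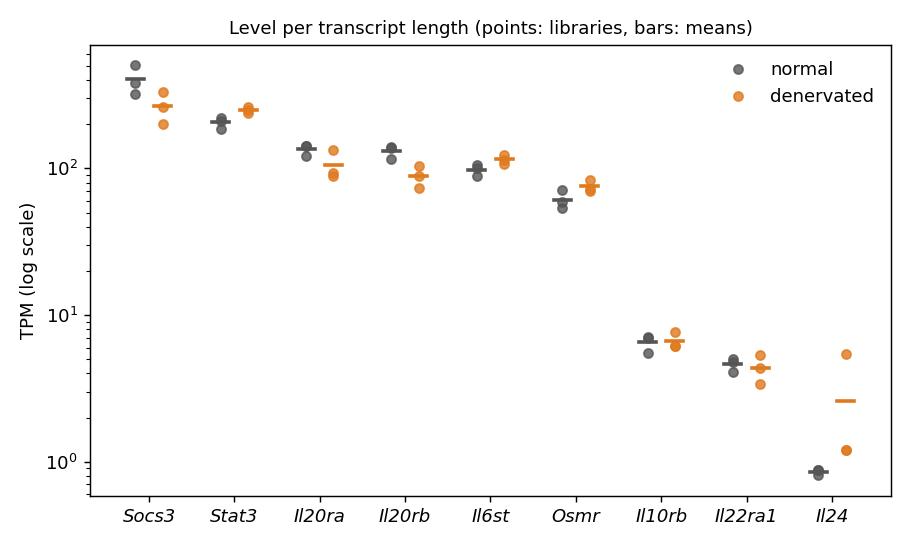
TPM of the 9 genes on a logarithmic axis, with 1 symbol per library and the genes in the order of their normal mean. Socs3, Stat3, Il20ra, Il20rb, Il6st and Osmr all lie above 50 TPM, Il10rb and Il22ra1 lie between 3.39 and 7.67 TPM, and Il24 is lowest on both sides by its mean.

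Ratios of TPM within a library show how the balance between members differed. Socs3 over Stat3 was 2.28, 2.06 and 1.53 on the normal side of animals 890, 892 and 899, and 1.06, 0.835 and 1.26 on the denervated side. These values do not overlap and were lower on the denervated side of all 3 animals. In animal 899 Socs3 itself was not lower in TPM (324 normal, 331 denervated), while Stat3 had 211 and 262 TPM. Osmr over Il20rb, the ratio of an IL-6 family chain to an IL-20 family chain, was 0.432, 0.381 and 0.616 on the normal side and 0.983, 0.798 and 0.805 on the denervated side, again without overlap. By contrast, ratios within the pairs Osmr with Il6st and Il20ra with Il20rb had overlapping ranges: Osmr over Il6st was 0.591 to 0.678 on the normal side and 0.618 to 0.673 on the denervated side. Il20ra over Il20rb was 0.867 to 1.23 and 1.00 to 1.29, and each of the 3 animals had the larger ratio on its denervated side. Il20ra over Il22ra1 was 28.5 to 29.8 on the normal side and 20.4 to 27.4 on the denervated side, without overlap. The size of this ratio rests on the length of 5825 bases used for Il22ra1. All of these ratios come from the contrast on which the members were selected, so no test is given.

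**Figure D4:**
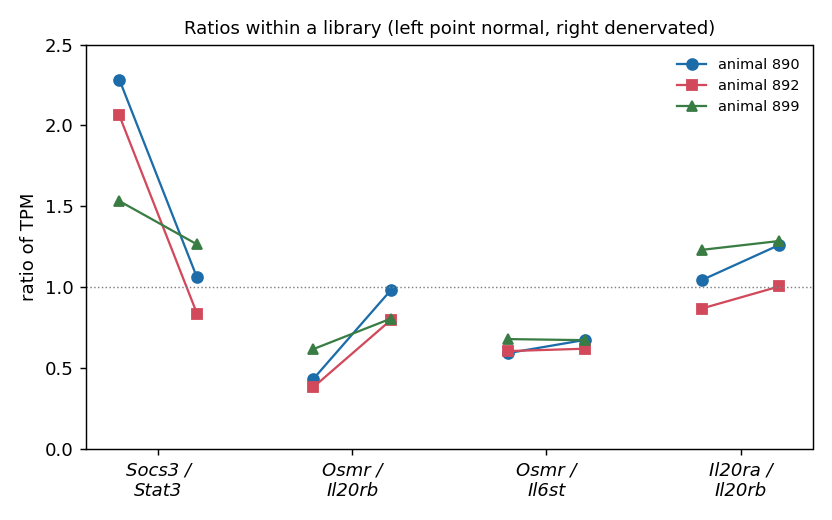
Ratio of TPM between pairs of members in each library (vertical axis, linear from 0), with 1 symbol per animal for the normal and denervated side. Socs3 over Stat3 lies between 1.53 and 2.28 on the normal side and between 0.835 and 1.26 on the denervated side, and Osmr over Il20rb between 0.381 and 0.616 and between 0.798 and 0.983.

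Animal 899 had the smallest difference between sides in Il20ra, Il20rb, Osmr, Il6st and Socs3, and in Stat3 animal 890 had it (log2 0.24, against 0.27 in 899). In Osmr, Il6st and Stat3 the animals lay closer together on the denervated side. The SD of log2 CPM over the 3 animals was 0.07 on the denervated and 0.22 on the normal side for Osmr and 0.04 and 0.12 for Il6st. Il10rb had 0.15 on the denervated and 0.18 on the normal side. The other members did not share this: Socs3 had 0.32 on the denervated and 0.30 on the normal side, and Il24 1.29 and 0.54. Likewise Il20ra had 0.25 and 0.11, Il20rb 0.18 and 0.15, and Il22ra1 0.27 and 0.13. With 3 libraries a side these spreads were not tested.

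Around the members, 97 other genes of the pathway were listed in 8 groups. Of these, 74 could be tested and 5 passed, 4 higher and 1 lower, beside the 3.46% of all genes tested. That split turned with the method: library totals gave 2 higher and 2 lower, and DESeq2 with the animal block 8 higher and 0 lower. The median log2 fold change of all genes tested was −0.02, against which the lists are set. None of the 11 other IL-6 family ligands passed (6 tested, median −0.11). Oncostatin M itself, Osm, had counts in 1 library only, at 4 counts. Lif, leukemia inhibitory factor, had 2.18, 1.03 and 1.86 CPM on the normal side and 0.538, 0.436 and 0.689 CPM on the denervated side. Its groups do not overlap, but with a log2 fold change of −1.55 ± 0.47 (SE) and an adjusted p of 0.0927 it did not pass edgeR's test. Clcf1, a cardiotrophin-like cytokine, had a log2 fold change of 0.55 and an adjusted p of 0.186 in the same test, with 20.1 CPM in the denervated library of animal 890 and 6.36 to 11.2 CPM in the other 5.

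The other receptor chains gave no call either. Among 6 further IL-6 family receptors (5 tested, median 0.08), the IL-6 receptor Il6ra had 159, 148 and 163 CPM on the normal side and 170, 154 and 172 CPM on the denervated side. Lifr had 170 ± 11.7 CPM and 176 ± 34.5 CPM (SD, n = 3 each). Il11ra1, the IL-11 receptor, had 14.0, 15.4 and 14.7 CPM on the normal side and 11.4, 9.53 and 13.1 CPM on the denervated side (adjusted p = 0.2, edgeR's test). Among 7 receptors of the IL-10 and interferon group (6 tested, median −0.12), the chains of the type I interferon receptor went in opposite directions without passing. Ifnar2 had a log2 fold change of 0.49 (adjusted p = 0.131, edgeR's test) and Ifnar1 of −0.26 (adjusted p = 0.182, edgeR's test).

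Of 9 Janus kinases and other Stats tested (of 10, median −0.20), Jak2 rose and none fell, whereas with library totals as the scaling the 1 call of this list was lower and Jak2 missed the threshold (adjusted p = 0.0534, edgeR's test). Jak2, one of the kinases bound to gp130, had 128, 118 and 132 CPM on the normal side of animals 890, 892 and 899 and 190, 156 and 150 CPM on the denervated side. The groups do not overlap, and the log2 fold change was 0.39 ± 0.08 (SE, adjusted p = 0.0252, edgeR's test). Without animal 890 its adjusted p was 0.0526 and without animal 892 it was 0.0583. Jak1, another gp130-bound kinase, had 544 ± 26.2 CPM and 650 ± 48.7 CPM (SD, n = 3 each) and an adjusted p of 0.117 in the same test. Tyk2, the third kinase that gp130 binds, and Stat5b had lower values on the denervated side of 3 of 3 animals, without overlap and without passing edgeR's test (both log2 fold change −0.35, adjusted p = 0.0904 and 0.0618). None of the 15 other Socs, Pias and phosphatase genes passed (15 tested, median 0.11). The smallest p among them were those of the phosphatase Ptpn2 (log2 fold change 0.27, adjusted p = 0.0731, edgeR's test) and of Pias1 (0.28, adjusted p = 0.0923, edgeR's test). Cish, another feedback inhibitor of the Socs family, had a log2 fold change of −0.22 and an adjusted p of 0.181 in edgeR's test.

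Of the 20 genes listed as Stat3 targets, 18 were tested (median −0.05): Bcl3 and Pim1 rose and Irf1 fell. Bcl3, an atypical IκB protein, had 49.8, 35.2 and 36.3 CPM on the normal side and 61.9, 53.5 and 49.2 CPM on the denervated side. It was higher in 3 of 3 animals, although the groups overlap, with a log2 fold change of 0.45 ± 0.09 (SE, adjusted p = 0.0196, edgeR's test; 0.124 without animal 892). Pim1, a serine/threonine kinase, had 403, 386 and 412 CPM and 530, 473 and 522 CPM, without overlap (0.34 ± 0.08 SE, adjusted p = 0.0278, edgeR's test). Irf1, a transcription factor better known as an interferon-induced gene, had 419, 323 and 330 CPM and 250, 220 and 312 CPM, also without overlap (−0.46 ± 0.11 SE, adjusted p = 0.033, edgeR's test). The calls of Pim1 and Irf1 are lost without animal 890 (adjusted p = 0.0879 and 0.0571) and without animal 892 (adjusted p = 0.081 and 0.0771). Pim1 also loses it with library totals (adjusted p = 0.0608, edgeR's test), and Irf1 in DESeq2 with the block (adjusted p = 0.156), where 3 genes of this list were higher and 0 lower. The other 15 tested genes of this list, among them Junb, Myc and Ccnd1, did not pass. Of these 15, Hif1a and Mcl1 had higher and Pim3 and Bcl2l1 lower values on the denervated side of 3 of 3 animals, without overlap. Their log2 fold changes were 0.29, 0.17, −0.31 and −0.29 (adjusted p = 0.0748, 0.271, 0.0879 and 0.238, edgeR's test).

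Among 22 epidermal response genes of IL-20 and IL-22, 15 were tested (median 0.19) and 1 passed. Mmp3, the secreted protease stromelysin-1, had 44.6, 49.7 and 20.1 CPM in the normal libraries of animals 890, 892 and 899 and 89.9, 67.6 and 29.2 CPM in the denervated libraries. It was higher in 3 of 3 animals, with groups that overlap because animal 899 was low on both sides (log2 fold change 0.68 ± 0.11 SE, adjusted p = 0.00884, edgeR's test). Its call held without each animal in turn, but not without the block (adjusted p = 0.513 in edgeR's test and 0.592 in DESeq2). In the unblocked fit the value was 0.34 without the denervated library of animal 890, 0.39 without the normal library of animal 899 and 1.03 without the denervated library of animal 899. The antimicrobial genes Defb4, Saa3 and Reg3g had 0 counts in all 6 libraries. The stress keratins Krt16 and Krt17 had log2 fold changes of 0.28 and 0.26 with adjusted p of 0.112 and 0.132 in edgeR's test, and Krt6a and Krt6b of 0.12 and −0.19 with adjusted p of 0.715 and 0.698.

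**Figure D5:**
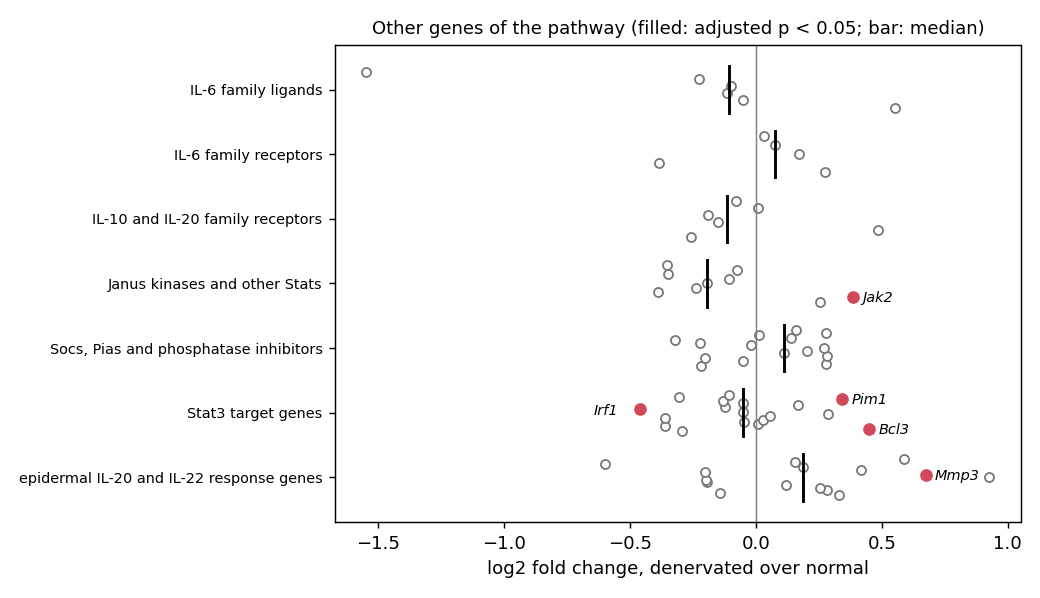
Log2 fold change, denervated over normal (horizontal axis), of each tested gene of the other pathway lists, with a bar at each list's median and filled symbols for an adjusted p under 0.05. The 5 filled symbols are Jak2, Pim1, Bcl3, Irf1 and Mmp3, and the medians lie between −0.20 and 0.19.

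For each member that passed the test, the 5 genes whose log2 CPM over the 6 libraries was most alike were taken from 11494 candidates. Most like Il20ra were Mir3109, Tnfaip8l3, Abca3, Slc9a7 and Zbtb17 (Pearson r from 0.993 to 0.981). For Il20rb they were Plxnb1, U2af1l4, Fgfr3, Cbx2 and Fam83f (r from 0.995 to 0.991), of which Fgfr3 also passed the test (log2 fold change −0.36, adjusted p = 0.0409, edgeR's test). Osmr was followed most closely by Cep170b, Map3k9, Fmr1, Cmip and Cbll1 (r from 0.998 to 0.994), and Cmip and Cbll1 were higher on the denervated side (log2 fold change 0.38 and 0.44, adjusted p = 0.0257 and 0.0394, edgeR's test). The genes most like Socs3 were Troap, Zscan26, Klhl20, Parp11 and Nckipsd (r from 0.993 to 0.986), none of which passed. No member was among the 5 most alike of another. These coefficients come from 6 libraries of 3 animals that share depth and scaling, and the highest of so many candidates are high by selection.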

How the data were processed

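Gene counts, one matrix for all 6 libraries, were used as the authors deposited them; per the submitters' processing notes the tools were STAR 2.6.1a and Salmon 0.11.2 with build mm10. The sources used here do not name the counter, its strand setting or the annotation, and per the labels' protocols the libraries were poly(A)-selected and made with a directional kit. TPM and estimated counts are those of the authors' Salmon files, deposited per sample, and estimated counts were rounded. Log2 fold changes and p-values described as the authors' come from their deposited comparison table, whose mean normalised signal and test score, as deposited, are not printed.

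Counts were tested with edgeR 4.0.16 (R 4.3.3): TMM, filterByExpr (minimum count 10, minimum total 15), the animal number of the titles as block, and Benjamini-Hochberg adjustment over 12310 genes. The labels say that both sides come from the same mouse, and deviations from the group means correlated at 0.356, 0.361 and 0.443 between sides of 1 animal and at −0.278 to −0.0407 otherwise. Standard errors are the absolute log2 fold change divided by the square root of F. CPM are TMM-scaled. Alternatives used DESeq2 1.42.0 and limma 3.58.1, the latter on log2(TPM + 1) or log2(TPM + 0.1). The fit was tested on simulated data. Replicates are separate animals. Named genes were the 9 members, the called genes of each list (at most 4) or else the 2 with the smallest p, and the 5 genes most alike each called member with a mean of at least 1 CPM, predicted genes left out. Other genes named, such as undetected ligands, Jak1, Tyk2, Stat5b, Lifr, Cish and the keratins, were chosen after their values were seen. The members and all lists were chosen with earlier results of these data known. Positions of the genes are from GENCODE M21 and promoter sequences from RefSeq, GRCm38.p6, the assembly behind mm10; 7 of 9 members matched a RefSeq window of 250 bases before to 50 after the start.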

Additional observations from a re-analysis of the deposited data

How the results depend on the processing

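Of 20 alternatives, the directions of Il20ra, Il20rb, Osmr, Il6st, Stat3 and Socs3 held in all. The numbers of genes called over the whole table, among the members and in the pathway lists were 426, 4 and 5. Without the replicate block edgeR's test gave 0, 0 and 0. Its adjusted p was then 0.302 for Il20ra, 0.157 for Il20rb, 0.248 for Osmr and 0.219 for Socs3. DESeq2 without the block gave 381, 5 and 5, and the 5 members called were Il20rb, Osmr, Il6st, Stat3 and Socs3. Limma on log2 TPM with the block, under either pseudocount and with no filter, gave 1, 0 and 0. With no filter on low counts the whole table gave 987 and the lists 17, and DESeq2 with the block gave 8 in the lists. Leaving out animals or single libraries gave 0 to 976 genes, 0 to 6 members and 0 to 17 list genes: without animal 892 the counts were 248, 1 and 2, without animal 899 they were 976, 6 and 17, and without animal 890 they were 385, 3 and 3. Leaving out 1 library used the fit with no block and gave 0 genes, except 42 without the normal library of animal 899. Leave-outs gave Il22ra1 −0.19 to 0.10 and Il10rb −0.044 to 0.14: Il22ra1 reversed to 0.10 without animal 890 and to 0.062 without its denervated library. Il10rb reversed to −0.0075 with library totals, to −0.044 without the normal library of animal 892 and to −0.033 without the denervated library of animal 899. Il20ra also lost its call in DESeq2 without the block (adjusted p = 0.118), and Socs3 with estimated counts (adjusted p = 0.0553). The cause of these changes was not tested. For Il24, the mean log2 difference over animals was 0.70 in CPM, 0.26 without animal 890, and 1.21 in the deposited TPM, an alternative chosen after seeing the data. With counts per gene length in place of TPM, the normal-side level of each of the 9 members moved by more than its SD. Socs3 went from 404 to 553 and Il24 from 0.854 to 1.77, while the order of the 9 genes stayed the same. The gene lengths in this alternative came from the same Salmon files as the TPM. It therefore changes the counts only, and whether the order holds with other lengths was not tested. Depth limits what can be said of Il24 and the ligands, since 3 counts are 0.115 to 0.312 CPM.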
